A study of Mus musculus with 4 samples.

Results

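The genes that end the light response of photoreceptors were examined in whole retinas of *rd7* and wild-type mice. The set held 7 genes, chosen by name as the rod and cone arrestins (*Sag* and *Arr3*), the visual pigment kinase (*Grk1*), recoverin (*Rcvrn*) and the members of the RGS9 complex (*Rgs9*, *Rgs9bp* and *Gnb5*), out of 22095 loci in the deposited table. All 7 carried a successful estimate in all 4 libraries, so none was lost to the HIDATA status that a locus receives when it holds too many reads. RNA-seq had been performed on 2 *rd7* and 2 wild-type libraries. Each library pooled 8 retinas from 2 male and 2 female mice at 3 weeks of age. The labels give the strain of every animal as C57BL/6J, with the genotype as WT or Nr2e3 mutant, and no animal received an agent. The *rd7* allele is a mutation of *Nr2e3*, the gene of a nuclear receptor of rod development. The study describes hybrid rods, with cone traits, in *rd7* retinas. A pool of 4 animals gives no spread between animals, and whole retina mixes all of its cell types. In such bulk RNA, fewer cells of a type and less RNA per cell cannot be told apart.

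Photoreceptors respond to light when activated opsin switches on transducin, which in turn activates the phosphodiesterase that hydrolyses cGMP. Recovery needs every one of these steps to be undone. GRK1 phosphorylates the activated opsin, and arrestin then binds the phosphorylated pigment and caps it. Recoverin is a calcium-binding protein that holds GRK1 back in darkness. Transducin is switched off by RGS9, the GTPase-activating protein of photoreceptors, which works as a complex with the long form of the G protein subunit Gβ5 (*Gnb5*) and is tethered to the outer segment disc by R9AP (*Rgs9bp*). In mice, cones use the same kinase and the same RGS9 complex as rods, and carry both arrestins, whereas *Arr3* is the arrestin of cones.

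The 7 loci lie on 6 chromosomes, given here in mm9. *Sag* spans chromosome 1 from 89700255 to 89741732, *Arr3* chromosome X from 97800836 to 97813831, and *Grk1* chromosome 8 from 13405081 to 13421949. *Rcvrn* (67508828 to 67516857) and *Rgs9* (109086669 to 109159495) are both on chromosome 11. *Rgs9bp*, a gene with 1 annotated exon, spans chromosome 7 from 36364013 to 36370601. *Gnb5* spans chromosome 9 from 75159202 to 75193478, 15.4 Mb from the mutated *Nr2e3* locus. The exons of the 7 genes overlap no exon of another annotated gene, although the *Rcvrn* locus overlaps that of *Glp2r* on the opposite strand. Of the 50-base words in their annotated coding-gene transcripts, as long as the sequenced reads, none is shared with another coding gene for *Sag*, *Arr3*, *Rcvrn*, *Rgs9bp* and *Gnb5*. For *Grk1* 235 of 7376 and for *Rgs9* 75 of 6073 such words also occur in transcripts of other genes. The 2 arrestins share no such word, so reads that match exactly can be told apart between them.

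Promoter windows of RefSeq (GRCm38.p6) were matched to 5 of the 7 genes, namely *Sag*, *Arr3*, *Grk1*, *Rgs9* and *Gnb5*. The 150 bases before the start site are shown for the 2 arrestins, and for *Grk1* and *Rgs9*, which differed between genotypes in opposite directions. Capitals mark TAATCC, the core site of the photoreceptor homeodomain factors CRX and OTX2, TGCTGA, a partial site of NRL, and AAGTCA, a partial site of NR2E3, each searched on both strands, so that a match on the other strand shows as its reverse complement, and with no overlap between the matches.
*Sag*, chr1:87803530-87803679, strand plus: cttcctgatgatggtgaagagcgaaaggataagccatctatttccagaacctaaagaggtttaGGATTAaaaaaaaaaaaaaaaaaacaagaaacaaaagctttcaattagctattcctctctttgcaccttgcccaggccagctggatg
*Arr3*, chrX:100605347-100605496, strand plus: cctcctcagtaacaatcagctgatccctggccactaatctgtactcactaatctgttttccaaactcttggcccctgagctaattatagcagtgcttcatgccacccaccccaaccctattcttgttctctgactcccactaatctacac
*Grk1*, chr8:13404931-13405080, strand plus: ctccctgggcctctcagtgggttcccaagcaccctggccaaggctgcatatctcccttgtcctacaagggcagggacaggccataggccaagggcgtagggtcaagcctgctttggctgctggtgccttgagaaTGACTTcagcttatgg
*Rgs9*, chr11:109298182-109298331, strand minus: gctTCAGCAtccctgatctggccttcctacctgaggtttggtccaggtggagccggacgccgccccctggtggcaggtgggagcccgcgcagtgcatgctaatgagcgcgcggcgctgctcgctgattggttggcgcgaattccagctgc
In the whole windows of 300 bases, which reach 50 bases past the start, TAATCC was found in 2 of the 5 genes, *Sag* (first base at -87, counted from the start site) and *Gnb5* (at -6), against 7.06% of all 32851 windows. TGCTGA was found in *Sag* (-187), *Rgs9* (-147) and *Grk1* (30 bases into the transcript), against 19.5% of all windows. AAGTCA was found in *Grk1* alone (-16), against 15.1% of all windows. The *Arr3* window held none of these letters in a row. These matches are letters in a window and were not tested as binding sites.

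FPKM values are sequenced fragments divided by transcript length and by the mapped total of the library, so levels can be compared between genes. Each of the 4 libraries held an estimated 3.58e+07 to 3.74e+07 reads, if the lowest FPKM step of genes with 1 transcript is 1 read. On this scale the 7 genes ranged widely. In wild-type retinas *Sag* was the highest, at 2853 ± 88.5 FPKM (SD, n = 2 libraries), and ranked 2nd among the 12655 genes tested. *Rcvrn* ranked 15th at 1139.9 ± 8.89 FPKM (SD, n = 2). *Gnb5*, *Rgs9* and *Grk1* followed at 446, 312 and 287 FPKM. *Arr3* (167 FPKM) and *Rgs9bp* (131 FPKM) were the lowest, and *Rgs9bp* still ranked 404th, far above the median gene at 9.73 FPKM. The order of the 7 genes was the same in *rd7* retinas. In both genotypes the libraries of each gene lay apart from those of its neighbour in the order, and *Rgs9* and *Grk1*, the closest neighbours in wild-type retinas, were 1.09-fold apart there and 1.67-fold apart in *rd7* retinas. *Sag* RNA exceeded *Arr3* RNA between 14.7-fold and 17.5-fold in the 4 libraries.

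**Figure D1:**
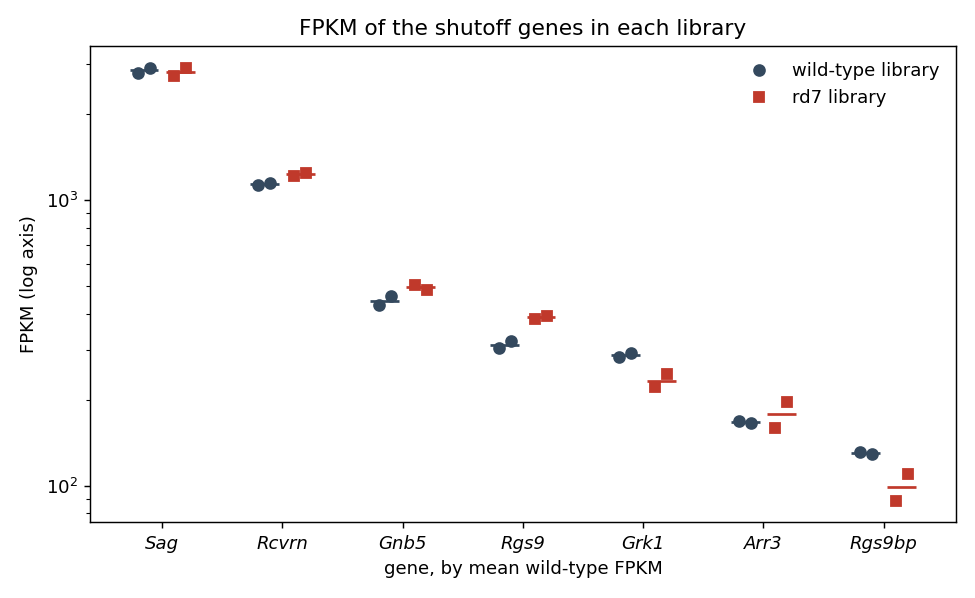
FPKM of the 7 genes (log axis) in the 2 wild-type (circles) and 2 *rd7* (squares) libraries, with the mean of each genotype as a line and genes ordered by their wild-type level. *Sag* lies between 2719 and 2916 FPKM and *Rgs9bp* between 88.8 and 132 FPKM, while the genotypes do not overlap at *Rgs9*, *Grk1*, *Rgs9bp*, *Rcvrn* and *Gnb5*, the last 2 of which were not called.

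Differences between genotypes were small in this set. At an FDR of 5% only *Rgs9* was higher in *rd7* retinas, *Grk1* and *Rgs9bp* were lower, and *Sag*, *Arr3*, *Rcvrn* and *Gnb5* were not called. Log2 fold changes ran from -0.40 to 0.32. The test was limma on log2(FPKM + 0.1) with Benjamini-Hochberg adjustment over the 12655 genes whose mean FPKM reached 1. Among all genes tested, 37.6% were called higher and 8.80% lower in *rd7*, compared to 1 and 2 of the 7 genes. The median log2 fold change of the 7 genes was 0.08 and that of all genes 0.15, so that a gene at the centre of the table already lies above 0. Median-ratio scaling moved that centre to -0.0049 and lowered every log2 fold change by about the same amount. An adjustment for exonic length and GC content moved the centre too, to -0.02, so its values also hold this shift. For 3 of the 7 genes (*Rgs9*, *Rcvrn* and *Gnb5*) both *rd7* libraries were above both wild-type libraries, as in 57.1% of all genes, and for 2 (*Grk1* and *Rgs9bp*) both were below, as in 19.5%. An exact permutation test of 2 against 2 libraries cannot give a p under 0.333 and was not used. The calls on *Rgs9*, *Grk1* and *Rgs9bp* were lost without a filter on low FPKM (0.32, -0.30 and -0.40), without wild-type replicate 1 (0.28, -0.32 and -0.39) and without wild-type replicate 2 (0.36, -0.27 and -0.41).

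The mutated gene and the marker genes give the setting of these values. *Nr2e3* stood at 2493 and 1589 FPKM in *rd7* and at 385 and 394 FPKM in wild-type libraries (log2 fold change 2.35, adjusted p = 0.0011 from limma), so that the mutated gene itself separated the genotypes. The study describes *rd7* mice as lacking this factor, and FPKM per gene does not separate mutant from functional transcripts. Of 9 cone markers, 8 were higher in *rd7* and 0 lower, with a median log2 fold change of 1.45. Their summed level was 4358 to 4612 FPKM in *rd7* and 1284 to 1330.2 FPKM in wild-type libraries. Of 8 rod markers tested, 6 were lower and 0 higher, with a median of -0.51 and a summed level of 8542 to 9033 FPKM against 12779.5 to 12966 FPKM. The other 2, *Pde6a* and *Pde6b*, the catalytic subunits of the rod phosphodiesterase, stood at 0.02 and 0.03 and were not called. Leaving out either wild-type replicate 1 or wild-type replicate 2, or the filter on low FPKM, cut the lower rod markers from 6 to 2, whereas the higher cone markers stayed at 8. Bipolar cell markers were higher for 6 of 8 genes (median 0.48), with sums of 617 to 768 FPKM against 517 to 551 FPKM, and Müller cell markers for 3 of 6 (median 0.32), with sums of 1986 to 2067 FPKM against 1841 to 1907 FPKM. Of all genes tested, 37.6% were called higher and 8.80% lower. With median-ratio scaling 1 Müller marker was lower. With that scaling, quantile scaling or the adjustment for length and GC content, 4 bipolar and 3 Müller markers were higher. Without wild-type replicate 1 these calls were 3 and 2, and without *rd7* replicate 2 they were 8 and 5. Pigment epithelium markers were higher for 4 of 4 tested but low in level, with sums over all 6 listed genes of 51.9 to 56.8 FPKM against 18.5 to 31.0 FPKM. Their higher calls fell to 0 without a filter on low FPKM and to 2 with the adjustment for length and GC content. They fell to 3 with a pseudocount of 1 and with median-ratio or quantile scaling. Lens markers (0 of 4 called, median -0.92) and blood markers (2 of 4 lower, median -1.23) varied between pools, with lens sums of 15.9 to 37.2 FPKM in *rd7* and 29.5 to 65.4 FPKM in wild-type, and blood sums of 73.4 to 151 and 248 to 286 FPKM. Without *rd7* replicate 2, 4 of 4 lens markers and 3 of 4 blood markers were lower. Without wild-type replicate 1 or wild-type replicate 2, 1 blood marker was lower. *Hbb-b2*, a globin gene, was under 0.01 FPKM in 3 libraries and at 35.3 FPKM in the other. Among the other tested markers the lowest value was 0.61 FPKM, for *Tyrp1* in wild-type replicate 2. *Rpe65* and *Alas2* also had a value under 1 FPKM. The part of these shifts in the results on the 7 genes was not tested.

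Arrestins cap phosphorylated opsin, and neither of them was called. The rod arrestin *Sag*, also named S-antigen, is among the most abundant transcripts of rods. The 2 *rd7* pools gave 2719 and 2899.6 FPKM and the 2 wild-type pools 2791 and 2916 FPKM. The genotypes overlapped, with the lowest value and the highest but 1 both in *rd7*. The log2 fold change was -0.02 (standard error 0.06, 95% interval -0.18 to 0.13, adjusted p = 0.786 from limma). This interval excludes the log2 fold change of -0.79 seen for *Gnat1*, the rod transducin α subunit, which fell from 5154 and 5206 FPKM to 2710.2 and 3333 FPKM. It also lies above those of the other rod markers called lower, of which *Nrl* was the nearest (-0.42). It holds those of the rod markers *Pde6a* (0.02) and *Pde6b* (0.03), which were not called. After adjustment for exonic length and GC content, *Sag* was called lower (-0.30, adjusted p = 0.024 from limma). That adjustment took 8894 bases as the length of *Sag*, the union of 8 annotated transcripts. Its coding-gene transcripts hold 1670 distinct 50-base words. Whether this length bears on the call was not tested. Every shutoff gene but *Rcvrn* had a lower log2 fold change with the adjustment than without it. With median-ratio scaling *Sag* stood at -0.18 and was not called (adjusted p = 0.080 from limma).

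The cone arrestin *Arr3* showed no rise either. Its FPKM was 159 and 197 in *rd7* and 169 and 166 in wild-type libraries, so that the 2 *rd7* pools lay on either side of the wild-type pools. The log2 fold change was 0.08 (standard error 0.10, 95% interval -0.17 to 0.33, adjusted p = 0.534 from limma). The 2 *rd7* pools were 0.31 apart on the log2 scale and the wild-type pools 0.02. Without *rd7* replicate 1, *Arr3* was called higher (0.24, adjusted p = 0.00212 from limma), and without *rd7* replicate 2 its log2 fold change was -0.07 and not called. The cone marker list behaved otherwise. Its members *Gnat2* and *Pde6c*, the cone transducin α and phosphodiesterase catalytic subunits, rose by 3.17 each on the log2 scale, and the upper bound for *Arr3*, 0.33, lies below the log2 fold change of every cone marker but *Opn1mw* (-0.16, not called). Relative to the geometric mean of the 9 cone markers in the same library, *Arr3* RNA was 0.723 and 0.869 times that mean in *rd7* and 2.35 and 2.27 times in wild-type retinas. This fall was not particular to *Arr3*, since the cone marker mean itself rose by 1.63 on the log2 scale. Every shutoff gene was lower on this scale, from -1.31 for *Rgs9* to -2.03 for *Rgs9bp*, with *Arr3* at -1.54. The ratio of *Sag* to *Arr3* was 17.1 and 14.7 in *rd7* and 16.6 and 17.5 in wild-type libraries. These ranges overlap, so no shift between the arrestins was detectable in 2 pools a genotype. The difference of -0.10 on the log2 scale turned to 0.24 with quantile normalization and ran from -0.21 to 0.0027 on leaving out 1 library.

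*Grk1* encodes the kinase that marks activated opsin for arrestin. Its FPKM was 221 and 246 in *rd7* and 282 and 291 in wild-type libraries, and both *rd7* values lay below both wild-type values. The log2 fold change was -0.30 (standard error 0.07, adjusted p = 0.0148 from limma), so that *rd7* retinas held 81.4% of the wild-type level. With the adjustment for length and GC content the log2 fold change was -0.54. *Rcvrn* encodes the calcium sensor that inhibits this kinase. Its FPKM was 1214 and 1251 in *rd7* and 1134 and 1146 in wild-type libraries. Both *rd7* values were above both wild-type values, but the difference did not pass the threshold (log2 fold change 0.11, standard error 0.05, 95% interval -0.01 to 0.24, adjusted p = 0.125 from limma). It passed without *rd7* replicate 1 (0.13, adjusted p = 0.0189 from limma) and changed sign with median-ratio scaling (-0.04). Kinase RNA per recoverin RNA was 0.182 and 0.197 in *rd7* and 0.248 and 0.254 in wild-type libraries. The kinase stood lower against its inhibitor in both *rd7* libraries, by -0.41 on the log2 scale, and 36.9% of all pairs of genes tested differed at least as much. The difference was -0.70 after the adjustment for length and GC content.

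The RGS9 complex consists of the GTPase-activating protein, its Gβ5 partner and its membrane anchor, and its genes did not move together. *Rgs9* was 385 and 393 FPKM in *rd7* and 304 and 321 FPKM in wild-type libraries, which do not overlap. It rose by 0.32 on the log2 scale (standard error 0.05, adjusted p = 0.00574 from limma), or 1.25-fold. With median-ratio scaling it was 0.16 (adjusted p = 0.0478 from limma), and with the adjustment for length and GC content the call was lost (0.11, adjusted p = 0.154 from limma). *Rgs9* also has a striatal isoform with a longer protein, and FPKM per gene does not separate the isoforms. *Gnb5* was 506 and 486 FPKM in *rd7* and 429.8 and 461 FPKM in wild-type libraries. Its *rd7* values were the higher in both pools, with a log2 fold change of 0.16 (standard error 0.06, 95% interval 0.01 to 0.30, unadjusted p = 0.0377 and adjusted p = 0.073 from limma), which did not pass. Without *rd7* replicate 2 it did (0.18, adjusted p = 0.0133 from limma), whereas the adjustment for length and GC content turned it to -0.04. With median-ratio scaling *Gnb5* stood at 0.00089 (adjusted p = 0.991 from limma). This gene is used beyond photoreceptors, in bipolar and other neurons.

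*Rgs9bp*, the anchor, was lower. Its FPKM was 88.8 and 110.0 in *rd7* and 132 and 129.6 in wild-type libraries, and both *rd7* values lay below both wild-type values although they differed from each other by 0.31 on the log2 scale. The log2 fold change was -0.40 (standard error 0.10, adjusted p = 0.0232 from limma), or 75.7% of the wild-type level. It was -0.56 without *rd7* replicate 2 and -0.25 without *rd7* replicate 1, and was called in both cases. With the adjustment for length and GC content it was -0.65.

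**Figure D2:**
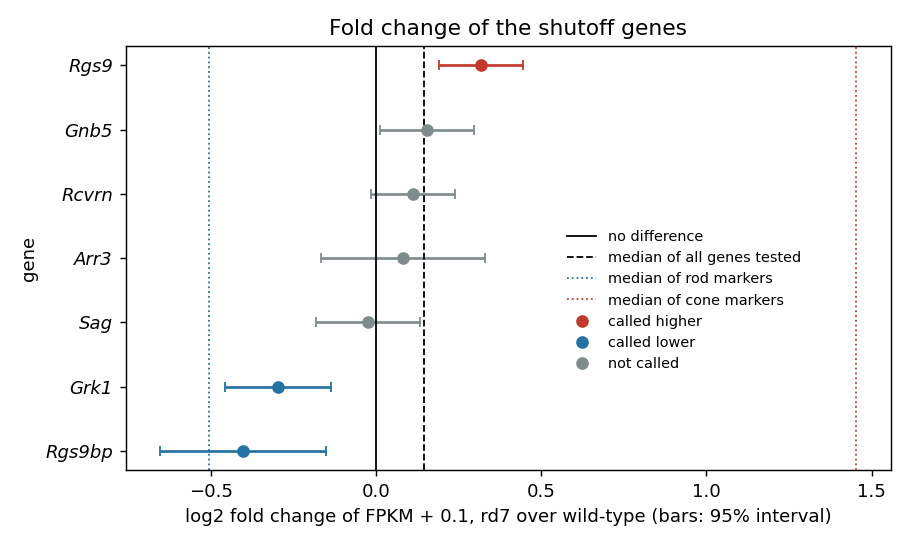
Log2 fold change of FPKM + 0.1 in *rd7* over wild-type for each of the 7 genes, with 95% intervals from limma, coloured by the call at an FDR of 5%. Lines mark no difference and the medians of all genes (0.15), of the rod markers (-0.51) and of the cone markers (1.45), and every one of the 7 genes lies between the medians of the rod and the cone markers.

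Ratios within a library do not depend on a factor applied to the whole library. The ratio of *Rgs9* to *Rgs9bp* was 4.33 and 3.58 in *rd7* and 2.31 and 2.47 in wild-type libraries. It was higher in both *rd7* libraries, by 0.72 on the log2 scale. This was the widest shift among the 21 pairs that the 7 genes form. Of all pairs of genes tested, 14.8% differed between genotypes by at least this much. *Rgs9* against *Gnb5* shifted less, with ratios of 0.760 and 0.809 in *rd7* and 0.707 and 0.695 in wild-type libraries. *Grk1* against *Rgs9* was 0.575 and 0.625 in *rd7* and 0.927 and 0.909 in wild-type libraries, a shift of -0.61 that 20.1% of all pairs equalled or exceeded. *Rcvrn* against *Gnb5* overlapped, with 2.40 and 2.57 in *rd7* and 2.64 and 2.48 in wild-type libraries. Of the 21 pairs, 16 had ratios that did not overlap between genotypes, a share of 76.2% that is close to the 73.4% of all pairs of genes tested. With 2 libraries a genotype these ratios carry no test.

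**Figure D3:**
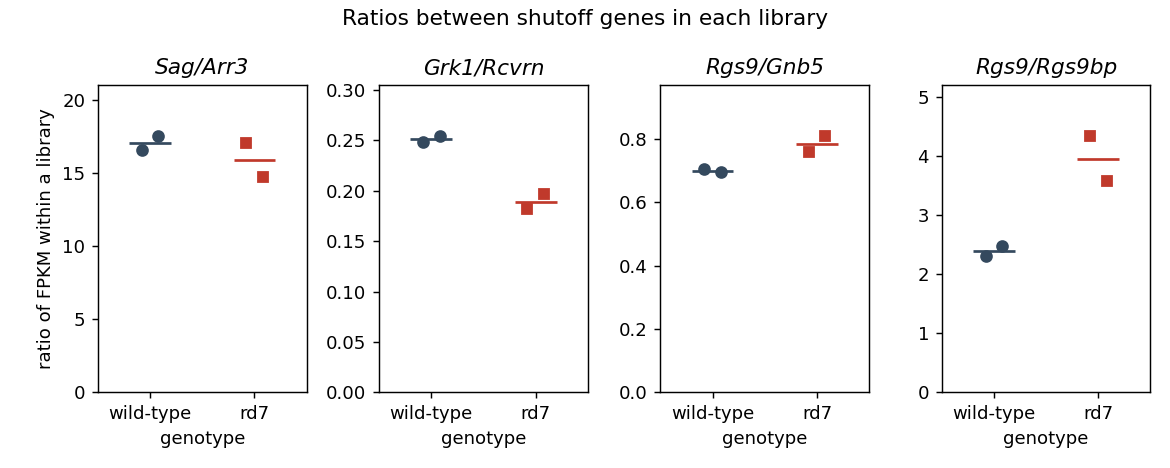
Ratio of the FPKM of 2 genes within each library, for wild-type (circles) and *rd7* (squares) with the mean as a line, on axes that start at 0. The *Sag*/*Arr3* ratios overlap between genotypes, *Grk1*/*Rcvrn* is lower in *rd7* (0.182 and 0.197) and *Rgs9*/*Rgs9bp* is higher (4.33 and 3.58).

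The 7 genes were next set against the rod markers, since these fell. The geometric mean of the 8 rod markers tested was 766 and 786 FPKM in *rd7* and 1048 and 1064 FPKM in wild-type libraries, a difference of -0.44 on the log2 scale. Per unit of this mean, *Sag* RNA was 3.55 and 3.69 in *rd7* and 2.66 and 2.74 in wild-type retinas. *Rgs9* RNA was 0.502 and 0.501 in *rd7* and 0.290 and 0.301 in wild-type retinas. Only *Rgs9bp* overlapped between genotypes on this scale, with 0.116 and 0.140 in *rd7* and 0.126 and 0.122 in wild-type retinas. With each library divided by its rod marker mean before the test, *Sag*, *Arr3*, *Rcvrn*, *Rgs9* and *Gnb5* were called higher, with log2 fold changes from 0.42 to 0.76, whereas *Grk1* (0.15, adjusted p = 0.0514 from limma) and *Rgs9bp* (0.04) were not called. On that scale 87.4% of all genes were called higher, so 5 of 7 genes is a share below the background. This scale moves every gene by about the same amount, so the order of the 7 genes is that of the unscaled values. *Grk1* and *Rgs9bp* lay nearest to the mean of the rod markers and *Rgs9* farthest above it. Single rod markers differed from that mean, with *Pde6a* (0.02) and *Pde6b* (0.03) unscaled near *Sag* (-0.02).

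**Figure D4:**
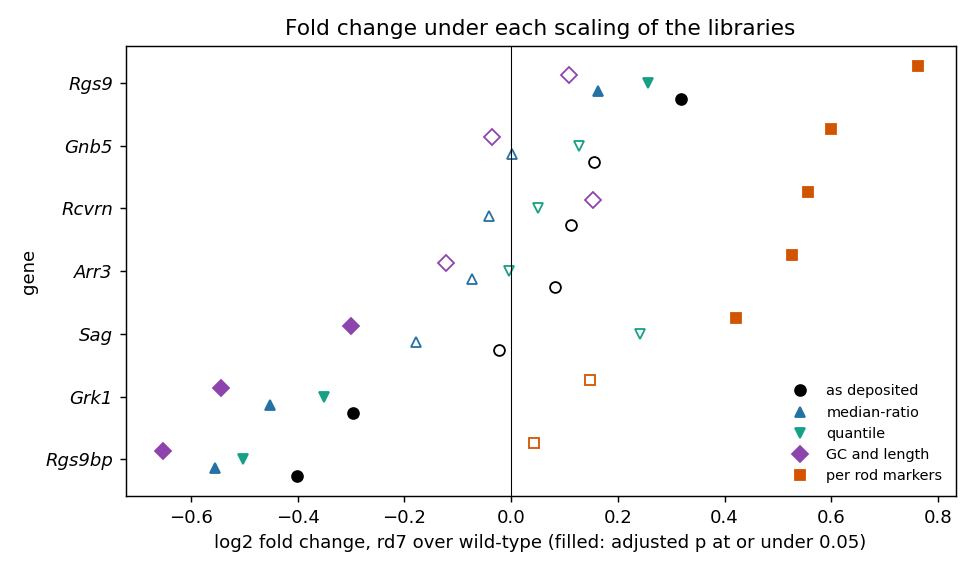
Log2 fold change of each gene in *rd7* over wild-type with the libraries as deposited, with median-ratio scaling, with quantile normalization, with an adjustment for exonic length and GC content, and per rod markers, where filled symbols have an adjusted p at or under 0.05. *Grk1* and *Rgs9bp* are below 0 and called in every scaling but that per rod markers, where they stand at 0.15 and 0.04, and *Rgs9* is above 0 in all 5.

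Other genes of activation and recovery moved in both directions. On the list of 16, 15 were tested, of which 7 were higher and 5 lower, with a median log2 fold change of 0.09 that turns to -0.07 under median-ratio scaling and under the adjustment for length and GC content, and to -0.0011 without *rd7* replicate 2. These counts compare with 37.6% higher and 8.80% lower over all genes. Some genes of this list, such as *Gnat1*, *Gnat2*, *Pde6g*, *Pde6h* and *Slc24a1*, are also rod or cone markers. The counts are therefore not separate from those of the marker lists. Lower calls fell to 2 without wild-type replicate 1 or without wild-type replicate 2, and to 1 without a filter on low FPKM. Higher genes included *Gnat2* at 3.17, *Pde6h*, the inhibitory phosphodiesterase subunit of cones that helps RGS9 act on transducin, at 2.19, and the exchanger *Slc24a2* at 0.61. Lower genes included *Gnat1* at -0.79, *Pde6g*, the rod counterpart of *Pde6h*, at -0.47, and *Slc24a1* at -0.83. The guanylate cyclase activating proteins, which restore cGMP, were split between *Guca1a* (0.74, higher) and *Guca1b* (-1.12, lower), as were the cyclases *Gucy2f* (0.47, higher) and *Gucy2e* (-0.31, lower). *Opn1mw*, *Pdc* (phosducin, which binds transducin βγ) and *Pde6d* (which carries prenylated proteins such as GRK1) were not called, with values of -0.16, -0.07 and 0.09.

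The paralogs and partners of the 7 genes were then counted. Of 21 on the list 20 were tested, and 9 were higher and 2 lower in *rd7*, with a median log2 fold change of 0.14 that turns to -0.01 with median-ratio scaling and to -0.03 with quantile normalization. These counts, 9 and 2 of 20, again stand beside 37.6% and 8.80% over all genes. They fell to 4 higher and 1 lower without wild-type replicate 1 and without a filter, to 5 and 0 without wild-type replicate 2, and to 5 and 3 with the adjustment for length and GC content. *Gnb1*, the β subunit of rod transducin, was not tested because its estimate failed in 1 *rd7* library. *Gnb3*, its cone counterpart, was the highest (1.78, from 222 and 224 FPKM to 731 and 803 FPKM) and is also on the cone marker list. Among the other RGS proteins that bind Gβ5, *Rgs6* (0.48) and *Rgs7* (0.32) were higher and *Rgs11* was not called (-0.23). *Rgs7bp*, the paralog of *Rgs9bp*, was higher (0.27), from 7.36 and 7.88 FPKM to 8.90 and 9.56 FPKM, a level well under that of *Rgs9bp*. The β-arrestins, which serve receptors of many tissues, were split between *Arrb1* (0.30, higher) and *Arrb2* (-0.27, lower), at 15.0 to 21.6 FPKM, below either visual arrestin. Of the other kinases of the family, *Grk4* was higher (0.71), and *Adrbk1*, *Adrbk2*, *Grk5* and *Grk6* were not called, with values from -0.03 to 0.18. Among the calcium sensors related to recoverin, *Ncald* (0.55) and *Hpcal4* (0.51) were higher, *Hpcal1* was lower (-0.41), and *Hpca*, *Vsnl1* and *Ncs1* were not called. *Gnb4* was higher (0.64) and *Gnb2* not called (0.08).

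**Figure D5:**
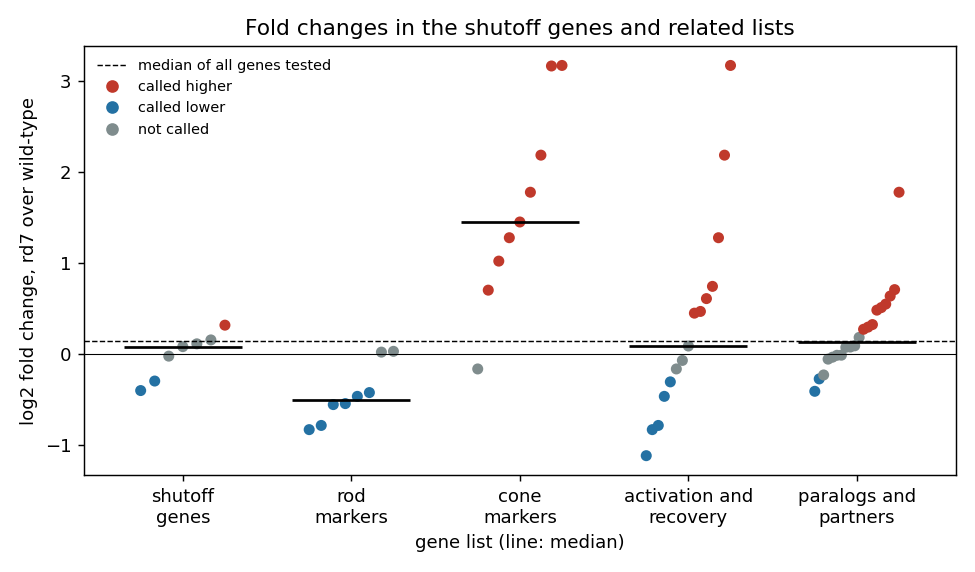
Log2 fold change in *rd7* over wild-type of each tested gene among the 7 shutoff genes, the rod and cone markers, the other genes of activation and recovery and the paralogs and partners, with the median of each list as a line. The shutoff genes lie between -0.40 and 0.32, while the activation and recovery genes reach from -1.12 to 3.17. Some genes, such as *Gnat2* at 3.17, stand in a marker list too.

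The genes whose pattern over the 4 libraries was nearest to each of the 7 were found by Euclidean distance between values on the log2(FPKM + 0.1) scale, centred on each gene's mean, among the 6471 genes whose mean FPKM reached 10. For *Sag* these were *Ddx23* and *Ube2h* (distances 0.0122 and 0.0174), for *Arr3* *Pgp* (0.0288), and for *Grk1* *Ranbp6* and *Ccdc92* (0.0107 and 0.0178). For *Rcvrn* they were *Wdr43* and *Wfs1* (0.00569 and 0.00759), for *Rgs9* *Topors* and *Pxk* (0.00661 and 0.0128), and for *Gnb5* *Sh3gl2* and *Zeb1* (0.0140 and 0.0236). *Rgs9bp* had *Aldoa* and *Hspa1a* (0.0382 and 0.0475). Patterns of 4 values are easily matched. Within a distance of 0.1 there were 1025 genes for *Rcvrn*, 764 for *Rgs9*, 708 for *Gnb5*, 533 for *Sag*, 92 for *Grk1*, 51 for *Arr3* and 16 for *Rgs9bp*, the last 2 being the genes whose *rd7* pools were farthest apart.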

How the data were processed

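RNA-seq of 4 libraries (2 *rd7*, 2 wild-type) was used. Per the labels and the study's methods, the authors mapped single 50 bp reads to mm9 with TopHat 1.4.1 and derived with Cufflinks 1.3.0 an FPKM for every gene in each library, and these deposited FPKM values carry a status for each estimate. The deposited table of the authors' own comparison also holds fold changes, test statistics and p-values, which were not used, and a pooled FPKM for each genotype. No counts were given, so no count model was fitted.

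Loci with a status other than OK in any library (262 of 22095) were left out. log2(FPKM + 0.1) of the 12655 genes whose mean FPKM reached 1 was compared with limma 3.58.1 in R 4.3.3 (variance trend, two-sided, Benjamini-Hochberg adjustment over all genes, FDR of 5%, no block). The fit was also run on simulated data. Few genes changed in that simulation, unlike in these data, so it does not bear on the calls given here. Ratios, distances and motif counts were computed in Python 3.11.15 (pandas 2.3.3, scipy 1.17.1). Exons, length and GC content came from GENCODE vM1 on the same build, with length and GC content taken over the union of a gene's annotated exons. Starts are counted from 1.

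The 7 genes and the lists of rod, cone, bipolar, Müller, pigment epithelium, lens and blood markers, of activation and recovery genes and of paralogs were chosen with earlier results of these data known. Genes named are the 7, *Nr2e3*, genes of these lists, and the 2 nearest patterns to each of the 7. A few genes of these lists and patterns are not reported here, though counts over a list include them where tested. *Cngb1*, on the rod list, was not analysed here. The proteins were not analysed here.

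The lowest FPKM of genes with 1 transcript put the depth at 3.58e+07 to 3.74e+07 reads per library, if the lowest step is 1 read, within a window of 0.02 to 0.036 FPKM times kb. At least 2.09e+04 reads then lay behind each value of *Grk1*, *Rcvrn* and *Rgs9bp*, the genes with 1 annotated transcript, a counting error of at most 0.691%.

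The alternatives tried were pseudocounts of 1 and 0.01, no filter, a minimum mean FPKM of 5, scaling by median ratios, quantiles or rod markers, no trend, a replicate block, each library left out, an FDR of 1%, and an adjustment by natural splines of exonic length and GC content (12174 genes).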

Additional observations from a re-analysis of the deposited data

How the results depend on the processing

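The log2 fold changes of *Grk1* (-0.30), *Rgs9bp* (-0.40) and *Rgs9* (0.32) were past the FDR of 5% with either other pseudocount, with a minimum mean FPKM of 5, without a variance trend, with a replicate block, and with median-ratio or quantile scaling. Libraries with the same replicate number did not deviate together (correlation of deviations -0.0265 across genes), and the block changed no call among the 7 genes (1 higher and 2 lower).

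Without a filter on low FPKM the same 3 values (-0.30, -0.40 and 0.32) lost their calls, leaving 0 genes higher and 0 lower. This setting brings genes near 0 FPKM into the variance trend. An FDR of 1% left 0 of the 7 lower. With the adjustment for exonic length and GC content *Rgs9* (0.11) lost its call, *Sag* gained one (-0.30), *Arr3* (-0.12) and *Gnb5* (-0.036) changed sign, and 0 genes were higher. Median-ratio scaling turned *Arr3* (-0.073) and *Rcvrn* (-0.042), and quantile normalization turned *Sag* (0.24) and *Arr3* (-0.0032), none of them called. Scaled to rod markers, *Sag* (0.42) turned and was called, *Grk1* (0.15) and *Rgs9bp* (0.043) turned without a call, *Arr3* (0.53), *Rcvrn* (0.56) and *Gnb5* (0.60) gained calls, and 5 genes were higher and 0 lower. Beyond the construction of each setting, the cause was not tested.

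Leaving out 1 library at a time gave log2 fold changes of -0.069 to 0.023 for *Sag*, -0.072 to 0.24 for *Arr3*, -0.37 to -0.22 for *Grk1*, 0.091 to 0.13 for *Rcvrn*, 0.28 to 0.36 for *Rgs9*, -0.56 to -0.25 for *Rgs9bp* and 0.10 to 0.21 for *Gnb5*. *Sag* turned to 0.023 without *rd7* replicate 1 and to 0.0087 without wild-type replicate 2, and *Arr3* to -0.072 without *rd7* replicate 2. *Grk1*, *Rgs9* and *Rgs9bp* lost their calls without either wild-type library, where the lone library is assumed to vary like the *rd7* pools. Between 0 and 3 genes were higher and between 0 and 2 lower. On the log2 scale the difference in ratio ran from 0.58 to 0.86 for *Rgs9* to *Rgs9bp*, from -0.46 to -0.35 for *Grk1* to *Rcvrn* (-0.70 with the adjustment) and from -0.21 to 0.0027 for *Sag* to *Arr3* (0.24 with quantile scaling).

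Calls over all genes, 4755 higher and 1114 lower, moved to 2492 and 2479 with median-ratio scaling, 2350 and 2404 with quantile scaling, 1515 and 1838 with the adjustment for length and GC content, 11055 and 156 scaled to rod markers, 2249 and 455 without a filter, and 2582 and 446 at an FDR of 1%. Leaving out 1 library gave 1293 to 5484 higher and 224 to 1601 lower.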

Other observations

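The deposited table of the authors' comparison gives for each genotype an FPKM pooled from its 2 libraries. For 6 of the 7 shutoff genes the authors' pooled wild-type value lay above both wild-type libraries, as it did for 82.2% of 11101 genes tested that the tables share. The pooled *rd7* value lay above both *rd7* libraries for 3 of the 7, between them for 3 and below for 1, against 85.4% of genes above. *Sag* had a pooled value of 3207 FPKM in wild-type and 3228 FPKM in *rd7*, where the highest single library was 2916. *Gnb5* went the other way, with pooled values of 404 FPKM in wild-type and 484 FPKM in *rd7*, below the lowest library of each genotype (429.8 and 486). Pooled and single-library values were not mixed.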
